A study of Homo sapiens with 4 samples.

Results

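The genes examined here are 10 brakes on ERK signalling, the dual-specificity phosphatases DUSP1, DUSP4, DUSP5, DUSP6 and DUSP7, the Sprouty genes SPRY1, SPRY2 and SPRY4, and the Spred genes SPRED1 and SPRED2. They were chosen by name, as all spots other than controls whose gene name on the array is one of these symbols. The rule uses no measured value, but the genes were proposed with earlier results of these data known. They take 11 probes and 20 of the 43118 spots of each array, and all 10 were among the 22022 genes tested. The study compared 2 arrays of control MCF10A.B2 cells (control) with 2 arrays of MCF10A.B2 cells that stably carry a tetracycline-inducible shRNA against PAK1 (PAK1 shRNA). MCF10A is an immortalized human mammary epithelial cell line, and MCF10A.B2 cells express a form of HER2 (ErbB2) that a chemical crosslinker switches on. Cells of both groups were starved of serum for 3 h and then given the crosslinker AP1510 for 15 min, so every array shows cells with an activated receptor and no unstimulated cells were analysed here. The labels name the first group only as control or wild type for PAK1, and an array of a non-targeting shRNA was not analysed here. The sample labels name a cell line whereas the design text speaks of cells from tumours, and how the replicates were obtained cannot be settled from them, so p-values measure only the spread between these samples, which may be technical.

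Activated receptor tyrosine kinases load Ras with GTP, and Ras drives the kinases RAF, MEK and ERK in turn. ERK enters the nucleus and switches on immediate early genes, among them genes whose products shut the pathway down again. Dual-specificity phosphatases remove the phosphates that activate ERK, Sprouty proteins act between the receptor and RAF, and Spred proteins bring the Ras inactivator neurofibromin to the membrane. Transcripts of several of these brakes are widely read as a sign of past ERK activity, although each also answers to other signals.

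PAK1, the target of the shRNA, had normalized log2 intensities of 11.19 and 11.27 in control cells, and 10.45 and 10.51 in PAK1 shRNA cells. Its level in PAK1 shRNA cells was 59.5% of control, a log2 fold change of -0.75 (standard error, SE, 0.08, adjusted p = 1.8e-04, limma with Benjamini-Hochberg adjustment). Between 78.9% and 83.1% of probes were well above background on each array, and the number of arrays limits the precision. All 8 basal mammary or general epithelial markers were well above background on all 4 arrays, of which 3 were higher (CDH1, CDH3 and LAMB3) and 4 lower (KRT5, KRT14, KRT17 and TP63) in PAK1 shRNA cells. Of markers of other cells, PGR, COL1A2 and PDGFRA were well above background on no array, whereas the other 7 were so on all 4. Among those 7, the monocyte marker CD14 and the collagen COL1A1 were higher by 1.32 and 0.87 on the log2 scale and the endothelial marker PECAM1 was lower (-1.56), and their part in the results was not tested. In RNA of whole cultures, fewer expressing cells and less RNA per cell cannot be told apart.

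Of the 10 ERK brakes, 7 were higher and 1 was lower in PAK1 shRNA cells, and DUSP4 and SPRY2 did not pass the threshold (0.05 for the p-value of limma after Benjamini-Hochberg adjustment, as for every adjusted p given). The same threshold called 62.9% of all genes tested, 31.1% higher and 31.8% lower, so a called gene was common on these arrays. The median log2 fold change of the 10 genes was 0.63, beside 0.02 over all genes tested. At least 2-fold higher levels were found for 4 of the 10, namely DUSP1, DUSP5, SPRY1 and SPRY4, whereas 8.86% of all genes were called and at least 2-fold higher. SPRY4 was counted by the brighter of its 2 probes, and with the probes averaged its log2 fold change of 0.95 lay under 2-fold. None of the 10 was at least 2-fold lower, against 8.93% of all genes. Both PAK1 shRNA arrays lay above both control arrays for the 7 higher genes and below them for DUSP7, which makes 8 of 10, and such a separation was seen in 81.7% of all genes, 42.1% for higher and 39.6% for lower levels. All 11 probes were well above background on all 4 arrays, none was saturated and none of their spots was flagged. The smallest p that 2 arrays in each group allow in a two-sided exact permutation test is 0.333, so the p-values given rest on the spread that limma estimates over all genes.

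**Figure D1:**
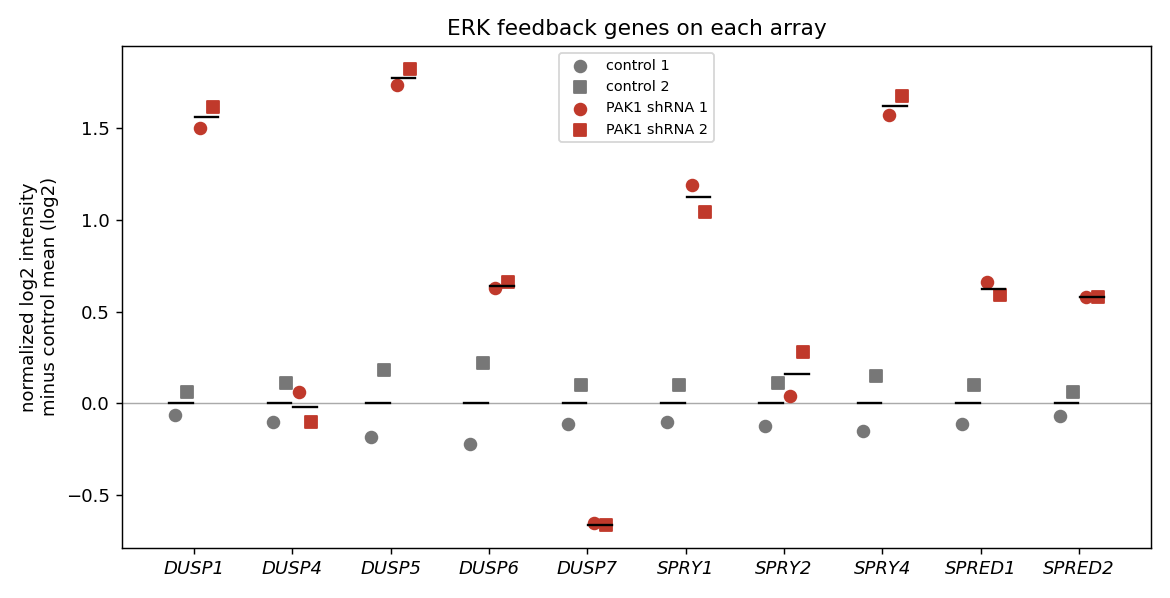
Normalized log2 intensity of each gene on each array, drawn as the difference from that gene's control mean (vertical axis, log2 units), with control arrays in grey, PAK1 shRNA arrays in red and group means as bars. The PAK1 shRNA arrays lie above both control arrays for 7 genes and below them for DUSP7, and the groups overlap for DUSP4 and SPRY2.

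Of the nuclear phosphatases, DUSP1 and DUSP5 rose in PAK1 shRNA cells and DUSP4 did not pass the threshold. DUSP1, an early response phosphatase that acts on p38 and JNK as well as on ERK, had normalized log2 intensities of 11.05 and 11.17 in control cells and 12.61 and 12.72 in PAK1 shRNA cells. It was 2.94-fold higher, a log2 fold change of 1.56 (SE 0.08, 95% confidence interval 1.36 to 1.76, adjusted p = 1.1e-05). The array carries 10 spots of the same DUSP1 probe (hg19 chromosome 5, 172195296 to 172195355, minus strand), which repeat the reading of each sample and are no further samples. Their lowest and highest values were 10.64 and 11.28 on the first control array and 10.83 and 11.38 on the second. On the PAK1 shRNA arrays they ran from 12.32 to 12.79 and from 12.43 to 12.94, so every spot of PAK1 shRNA cells was above every spot of control cells. The SD of the 10 spots within an array lay between 0.16 and 0.23, several times smaller than the difference between the groups.

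DUSP5, a phosphatase that binds ERK in the nucleus and is specific for it, showed the largest change among the 10 genes. Its values were 9.35 and 9.71 in control cells and 11.26 and 11.35 in PAK1 shRNA cells (probe at hg19 chromosome 10, 112270900 to 112270959, plus strand). The groups were well apart, with a 3.42-fold higher level, a log2 fold change of 1.77 (SE 0.12, 95% confidence interval 1.48 to 2.07, adjusted p = 3.2e-05). Only 3.51% of the genes tested rose more than DUSP5, against 4.17% for SPRY4 and 4.45% for DUSP1. DUSP4, a nuclear phosphatase of ERK and JNK, had values of 12.25 and 12.46 in control cells and 12.41 and 12.25 in PAK1 shRNA cells (probe at hg19 chromosome 8, 29194382 to 29194441, minus strand). The groups overlapped fully, and the log2 fold change of -0.02 had a 95% confidence interval of -0.27 to 0.22 (adjusted p = 0.86), which leaves out changes of the size seen for DUSP1 and DUSP5.

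**Figure D2:**
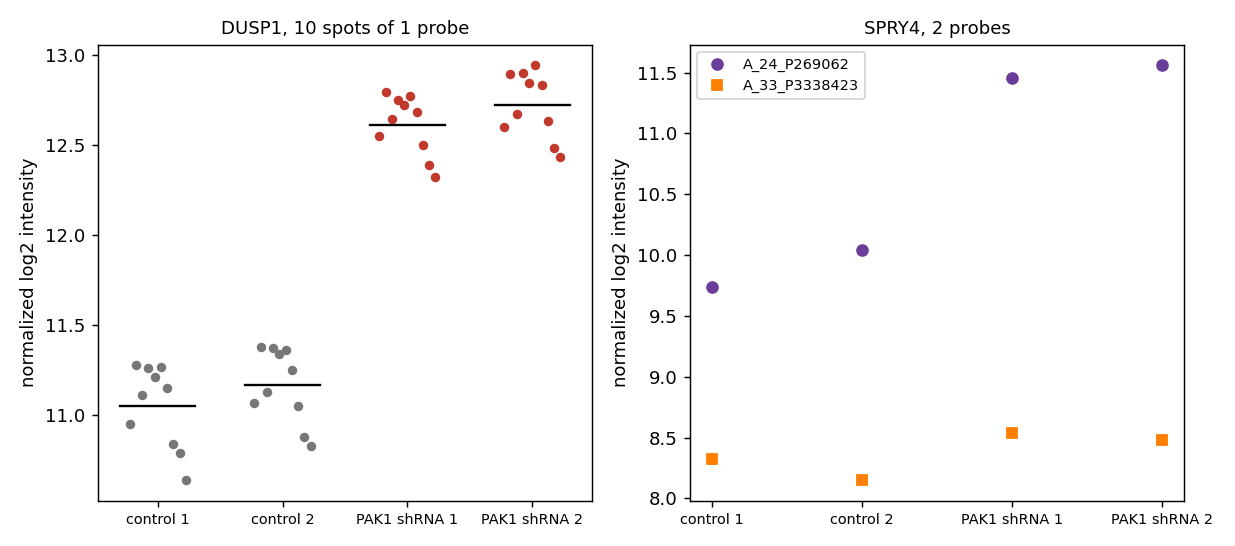
Normalized log2 intensity (vertical axes) of the 10 spots of the DUSP1 probe on each array, with the mean of each array as a bar (left), and of the probes A_24_P269062 and A_33_P3338423 of SPRY4 on each array (right). The DUSP1 spots of the PAK1 shRNA arrays start at 12.32, above the highest control spot at 11.38, and the SPRY4 probes differ in the size of their change, 1.62 and 0.27.

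The cytoplasmic ERK phosphatases moved in opposite directions. DUSP6, the cytoplasmic phosphatase most often used as a transcript readout of ERK activity, had values of 14.06 and 14.5 in control cells and 14.91 and 14.94 in PAK1 shRNA cells (probe at hg19 chromosome 12, 89742144 to 89742203, minus strand). The groups did not overlap, but the control arrays differed from each other more than for any other of the 10 genes (SD 0.31, n = 2). The level was 1.56-fold higher (log2 fold change 0.64, SE 0.14, 95% confidence interval 0.31 to 0.98, adjusted p = 0.0064), and the estimate was 0.44 without the first control array and 0.86 without the second. DUSP7, a close relative of DUSP6 that also acts on ERK in the cytoplasm, was the only one of the 10 genes that fell. Its values were 7.52 and 7.73 in control cells and 6.98 and 6.97 in PAK1 shRNA cells, 63.5% of control (log2 fold change -0.65, SE 0.09, 95% confidence interval -0.87 to -0.44, adjusted p = 7.8e-04). Both PAK1 shRNA arrays lay below both control arrays. The DUSP7 signal was low, with raw spot intensities of 215 and 195 in control cells and 105 and 108 in PAK1 shRNA cells over a local background of 44 to 52, and its estimate was -0.95 on the scanner's processed signal and -0.36 with the background model (normexp) fitted on all spots.

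The DUSP7 probe and the weaker of the SPRY4 probes are shown because the direction of DUSP7 and the size of the SPRY4 change turn on them. Both are 60 bases long and are written as the scanner files give them. The DUSP7 probe covers hg19 chr3:52088352-52089886 on the minus strand, an interval of 1535 bases, so its bases do not lie in an unbroken stretch of the genome. The SPRY4 probe lies at hg19 chr5:141694487-141694546 on the minus strand. No annotation of hg19 was used here, so exons and untranslated regions are not given for any probe.
DUSP7 probe A_24_P51855: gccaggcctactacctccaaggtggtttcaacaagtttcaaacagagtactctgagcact
SPRY4 probe A_33_P3338423: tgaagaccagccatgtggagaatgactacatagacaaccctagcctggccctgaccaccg

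Of the Sprouty genes, SPRY1 and SPRY4 rose and SPRY2 did not pass the threshold. Sprouty proteins are induced by growth factors and hold back signalling from receptor tyrosine kinases to Ras and RAF. SPRY1 had values of 9.06 and 9.26 in control cells and 10.35 and 10.2 in PAK1 shRNA cells (probe at hg19 chromosome 4, 124324494 to 124324553, plus strand). It was 2.17-fold higher, with no overlap between the groups (log2 fold change 1.12, SE 0.10, 95% confidence interval 0.88 to 1.36, adjusted p = 9.4e-05). SPRY4, which is represented by the brighter of its 2 probes (A_24_P269062, hg19 chromosome 5, 141690571 to 141690630, minus strand), had values of 9.74 and 10.04 in control cells and 11.46 and 11.56 in PAK1 shRNA cells. It was 3.08-fold higher (log2 fold change 1.62, SE 0.11, 95% confidence interval 1.35 to 1.89, adjusted p = 3.2e-05).

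The other SPRY4 probe, A_33_P3338423, rose much less. Its values were 8.32 and 8.15 in control cells and 8.54 and 8.48 in PAK1 shRNA cells. Both PAK1 shRNA arrays still lay above both control arrays, and its log2 fold change was 0.27 (SE 0.09, 95% confidence interval 0.07 to 0.48, adjusted p = 0.027 with each probe as a feature of its own). The intervals of the SPRY4 probes did not overlap, and with the probes averaged the log2 fold change of SPRY4 was 0.95. SPRY2, the Sprouty gene with the smallest change, had values of 12.07 and 12.3 in control cells and 12.23 and 12.47 in PAK1 shRNA cells (probe at hg19 chromosome 13, 80910622 to 80910681, minus strand). The groups overlapped, and the log2 fold change was 0.16 (95% confidence interval -0.12 to 0.44, adjusted p = 0.27), an interval that lies below those of SPRY1 and of the brighter SPRY4 probe.

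Both Spred genes rose by a similar and smaller amount. SPRED1, which tethers neurofibromin to the membrane and so lowers active Ras, had values of 9.73 and 9.94 in control cells and 10.5 and 10.43 in PAK1 shRNA cells (probe at hg19 chromosome 15, 38645760 to 38645819, plus strand). It was 1.54-fold higher (log2 fold change 0.63, SE 0.09, 95% confidence interval 0.40 to 0.85, adjusted p = 0.0011). SPRED2, which acts in the same way, had values of 8.72 and 8.85 in control cells and 9.37 on both PAK1 shRNA arrays (probe at hg19 chromosome 2, 65538851 to 65538910, minus strand). It was 1.5-fold higher (log2 fold change 0.58, SE 0.08, 95% confidence interval 0.39 to 0.78, adjusted p = 7.1e-04). Neither gene had overlapping groups. Larger rises than those of SPRED1 and SPRED2 were found in 15.8% and 16.9% of all genes tested.

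From the largest rise to the largest fall, the genes followed the order DUSP5, SPRY4, DUSP1, SPRY1, DUSP6, SPRED1, SPRED2, SPRY2, DUSP4 and DUSP7. The confidence intervals of DUSP5, SPRY4 and DUSP1 overlapped one another, and so did those of DUSP6, SPRED1 and SPRED2. The interval of SPRY1 met that of DUSP1 at 1.36 and overlapped those of SPRY4 and DUSP6, but not those of SPRED1 and SPRED2. Differences between genes were not tested. Within the control group, all 10 genes were higher on the second array than on the first, by 0.12 to 0.43 on the log2 scale with a median of 0.21. Over all genes tested, 49.5% were higher on the second control array and the median difference was 0. Between the PAK1 shRNA arrays, 6 of the 10 genes were higher on the second, with differences from -0.16 to 0.24 and a median of 0.01. The control array that was higher for all 10 genes was thus the nearer one to the PAK1 shRNA arrays for the 7 genes that rose and the farther one for DUSP7.

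Promoter sequences of 300 bases, from 250 before to 50 after the transcription start, were taken from RefSeq (GRCh38.p14) and were found for 8 of the 10 genes, with 12 promoters in all. DUSP4 and DUSP5 had no entry. The promoters were searched on both strands for TGACGTCA (the cAMP response element, CRE), TGANTCA (AP-1), CCGGAAGT (ETS), the interferon-stimulated response element (GAAA, any 2 bases and GAAA again) and the CArG box bound by SRF, motifs that do not overlap in the matches found. The CRE occurred in 1 of the 12 promoters, that of DUSP1, where it began at position -125 from the start, and in 1.85% of all 35116 RefSeq promoters of this length. AP-1 was matched in 1 of the 12, the second promoter of SPRED2, against 7.71% of all. That promoter held 2 matches, of which the first began just before the start and the other after it. No match of the ETS motif, the CArG box or the interferon-stimulated response element lay in the 12 windows, against 4.14%, 1.29% and 3.57% of all promoters. The GC content of the 12 promoters ran from 39.3% to 78%, with a median of 58.7% over all promoters.

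The DUSP1 and SPRED2 promoters are shown as those with a match, in capitals, and the DUSP6 and SPRY4 promoters as those of genes that rose without one. They are written 5′ to 3′ along the gene, all on the minus strand of GRCh38.p14, at chr5:172771146-172771445 for DUSP1, chr2:65366729-65367028 for SPRED2, chr12:89352452-89352751 for DUSP6 and chr5:142324198-142324497 for SPRY4. A match is a description of the letters in the window and shows no binding.
DUSP1 promoter: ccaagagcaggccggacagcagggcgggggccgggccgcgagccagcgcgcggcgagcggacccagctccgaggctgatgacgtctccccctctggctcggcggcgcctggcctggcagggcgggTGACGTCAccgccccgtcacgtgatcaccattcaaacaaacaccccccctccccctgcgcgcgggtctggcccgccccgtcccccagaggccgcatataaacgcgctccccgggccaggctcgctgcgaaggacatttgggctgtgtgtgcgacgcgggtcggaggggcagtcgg
SPRED2 second promoter: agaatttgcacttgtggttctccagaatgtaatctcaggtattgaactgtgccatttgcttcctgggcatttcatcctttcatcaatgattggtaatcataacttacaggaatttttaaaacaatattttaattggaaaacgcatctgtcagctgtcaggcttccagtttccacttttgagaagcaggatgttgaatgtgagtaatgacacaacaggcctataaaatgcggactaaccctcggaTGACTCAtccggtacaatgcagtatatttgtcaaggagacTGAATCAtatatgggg
DUSP6 promoter: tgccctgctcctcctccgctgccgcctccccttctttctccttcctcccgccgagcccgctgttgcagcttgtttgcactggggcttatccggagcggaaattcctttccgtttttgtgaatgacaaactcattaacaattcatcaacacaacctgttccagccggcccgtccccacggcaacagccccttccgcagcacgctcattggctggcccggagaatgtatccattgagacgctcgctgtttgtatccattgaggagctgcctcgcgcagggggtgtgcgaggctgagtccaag
SPRY4 promoter: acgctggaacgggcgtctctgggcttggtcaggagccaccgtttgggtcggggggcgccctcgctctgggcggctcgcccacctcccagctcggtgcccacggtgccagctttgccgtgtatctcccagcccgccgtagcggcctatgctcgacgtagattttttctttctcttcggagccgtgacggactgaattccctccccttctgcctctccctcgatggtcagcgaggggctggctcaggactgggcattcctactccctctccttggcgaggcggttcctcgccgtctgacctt

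Of 20 genes of the cascade that these genes act on, from the receptors to ERK, 7 (35%) were higher, 5 (25%) were lower and 8 did not pass the threshold, near the 31.1% and 31.8% of all genes tested. Their median log2 fold change was -0.04. ERBB3, a receptor that pairs with ERBB2, had values of 9.56 and 9.25 in control cells and 10.68 and 10.75 in PAK1 shRNA cells (log2 fold change 1.31, SE 0.11, adjusted p = 8.3e-05). ERBB2 fell, from 12.64 and 12.59 to 11.85 and 11.79 (log2 fold change -0.80, SE 0.07, adjusted p = 1.2e-04), and the probe may read the transgene as well as the cell's own gene. With the probes of a gene averaged, the changes of ERBB3 and ERBB2 were 0.82 and -0.45. The adaptor SHC1 rose by 1.07 on the log2 scale. The scaffold KSR1, which holds RAF, MEK and ERK together, fell from 7.34 and 7.52 to 6.39 and 6.44 (log2 fold change -1.01). Its signal was low, though well above background on every array. The size of its fall depended on the background model, at -0.53 with the model fitted on all spots and -1.85 on the processed signal. MAPK3, which encodes the kinase ERK1 and was chosen after its value was seen, was also lower (log2 fold change -0.59, SE 0.07, adjusted p = 4.8e-04).

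Of 15 other MAP kinase phosphatases and feedback regulators, 8 (53.3%) were higher, 6 (40%) were lower and DUSP9 did not pass the threshold. Over all genes tested the shares were 31.1% and 31.8%. The median log2 fold change of the 15 genes was 0.21. SPRED3, the remaining Spred gene, showed a larger change by its brightest probe than any of the 10 genes. Its values were 7.24 and 7.33 in control cells and 10.33 and 10.29 in PAK1 shRNA cells, an 8.11-fold higher level (log2 fold change 3.02, SE 0.08, adjusted p = 6.6e-07). With the probes of a gene averaged, the change of SPRED3 was 1.66, below that of DUSP5 (1.77). DUSP16, a phosphatase of JNK, rose by 1.15 on the log2 scale (SE 0.10, adjusted p = 8.8e-05), by 0.69 with the background model fitted on all spots and by 1.74 on the processed signal. LRIG1, a membrane protein that promotes the degradation of ErbB receptors, fell from 13.62 and 13.48 to 11.75 and 11.43 (log2 fold change -1.96, SE 0.12, adjusted p = 1.8e-05). IL17RD, also known as SEF, which holds active MEK and ERK in the cytoplasm, fell from 8.68 and 8.76 to 7.26 and 7.1 (log2 fold change -1.54, SE 0.09, adjusted p = 1.3e-05), and its change was -0.94 with the background model fitted on all spots. NF1, the neurofibromin that SPRED proteins recruit and chosen after its value was seen, was higher by 0.39 (SE 0.08, adjusted p = 0.0038), but stood at -0.14 without normalization between arrays.

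Of 20 transcriptional outputs of ERK, 10 (50%) were higher, 8 (40%) were lower and 2 did not pass the threshold, beside 31.1% and 31.8% of all genes tested. Their median log2 fold change was 0.18. The receptors EPHA4 and EPHA2 rose most, by 1.86 and 1.76 on the log2 scale. EGR2, an immediate early zinc finger factor, had values of 9.08 and 9.86 in control cells and 6.66 and 6.76 in PAK1 shRNA cells (log2 fold change -2.76, SE 0.23, adjusted p = 7.4e-05). FOSB, a partner of JUN in AP-1, fell from 8.88 and 9.28 to 7.51 and 7.49 (log2 fold change -1.58, SE 0.13, adjusted p = 7.0e-05). The following immediate early and ETS genes were chosen after their values were seen. FOS, EGR1 and ETV4 were lower, with log2 fold changes of -1.09, -0.94 and -1.5. ETV5, another ETS gene of the list, did not pass the threshold (log2 fold change 0.08, adjusted p = 0.49). EGR3 had values of 9.97 and 10.25 in control cells and was called lower (adjusted p = 9.4e-07). It was not well above background on either PAK1 shRNA array (6.33 and 6.28). The size that limma fitted to EGR3 is therefore drawn in the figure but not given in the text. Other immediate early genes of the list were called higher, among them JUN, IER3, IER2, JUNB and FOSL1, with log2 fold changes of 0.87, 0.72, 0.36, 0.31 and 0.26. These rises were not called without normalization between arrays. There, EPHA2 and EPHA4 were the only genes of the list called higher, and 8 were called lower. With the background model fitted on all spots the changes of EGR2, FOSB and ETV4 were -1.74, -1.02 and -0.93. Whether the group of 10 differed from these lists was not tested.

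**Figure D3:**
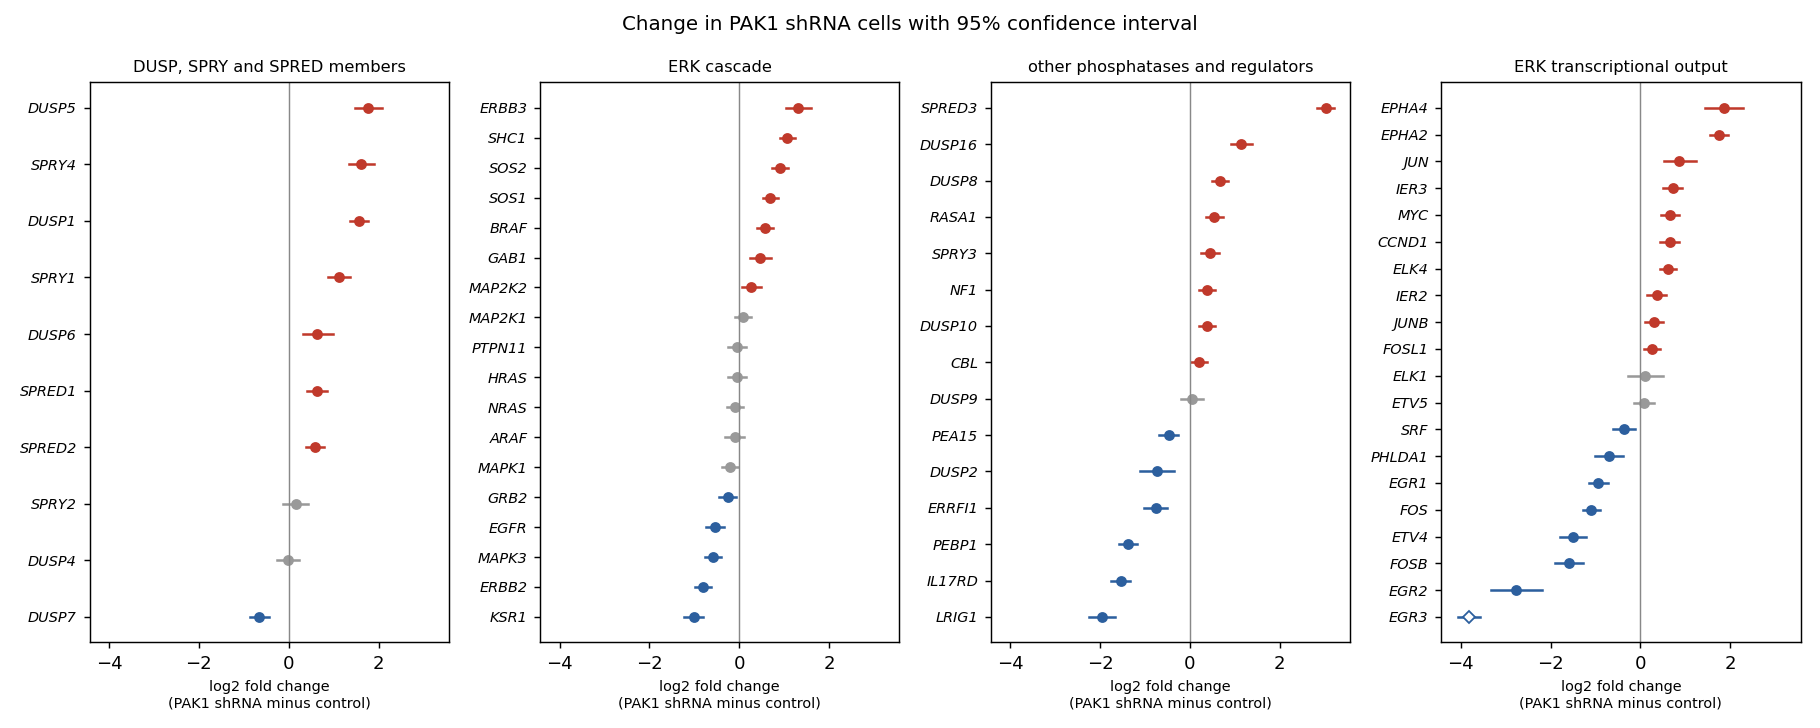
Log2 fold change in PAK1 shRNA cells relative to control (horizontal axes), with the 95% confidence interval of limma as a line, for the 10 genes, genes of the ERK cascade (2 of the 20 that did not pass the threshold are not drawn), 15 other phosphatases and regulators and 20 transcriptional outputs of ERK. Red marks genes called higher, blue genes called lower and grey genes that did not pass the threshold. The open diamond marks EGR3, which was not well above background in PAK1 shRNA cells, so its drawn position is not read as a size. Of the 10 genes 7 are called higher and 1 lower. The other lists, of 20, 15 and 20 genes, hold 7 higher and 5 lower, 8 and 6, and 10 and 8. Of all genes tested, 31.1% were called higher and 31.8% lower.

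The genes whose values over the 4 arrays were closest to DUSP5, by Euclidean distance of log2 values after each gene's mean was subtracted, were B3GNT3 (distance 0.0833), ACP2 (0.123) and CARD16 (0.129). B3GNT3 encodes an N-acetylglucosaminyltransferase, ACP2 a lysosomal acid phosphatase and CARD16 a regulator of caspase-1. Their log2 fold changes were 1.77, 1.70 and 1.72, beside 1.77 for DUSP5.

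The direction of the change was the same for DUSP1, DUSP5, DUSP6, DUSP7, SPRY1, SPRY4, SPRED1 and SPRED2 under all 21 other settings. DUSP1, DUSP5, SPRY1 and SPRY4 were also called under all of them, with log2 fold changes from 1.04 to 1.62, from 1.26 to 1.94, from 0.61 to 1.22 and from 0.95 to 1.77. Settings that changed only the test or its threshold, or added the replicate number as a block, could not turn the direction. DUSP6, SPRED1 and SPRED2 did not pass the threshold on values without normalization between arrays, where the median of all genes was -0.29 and these genes stood at 0.20, 0.11 and 0.10 on the log2 scale (adjusted p = 0.43, 0.68 and 0.69). Each still lay above that median. With the methods' t-test, which they name for the study in general while they name limma for the arrays, DUSP6, DUSP7 and SPRED1 no longer passed (adjusted p = 0.15, 0.054 and 0.062). Without normalization DUSP4 was called lower, at -0.53 (adjusted p = 0.015), and SPRY2 stood at -0.35.

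**Figure D4:**
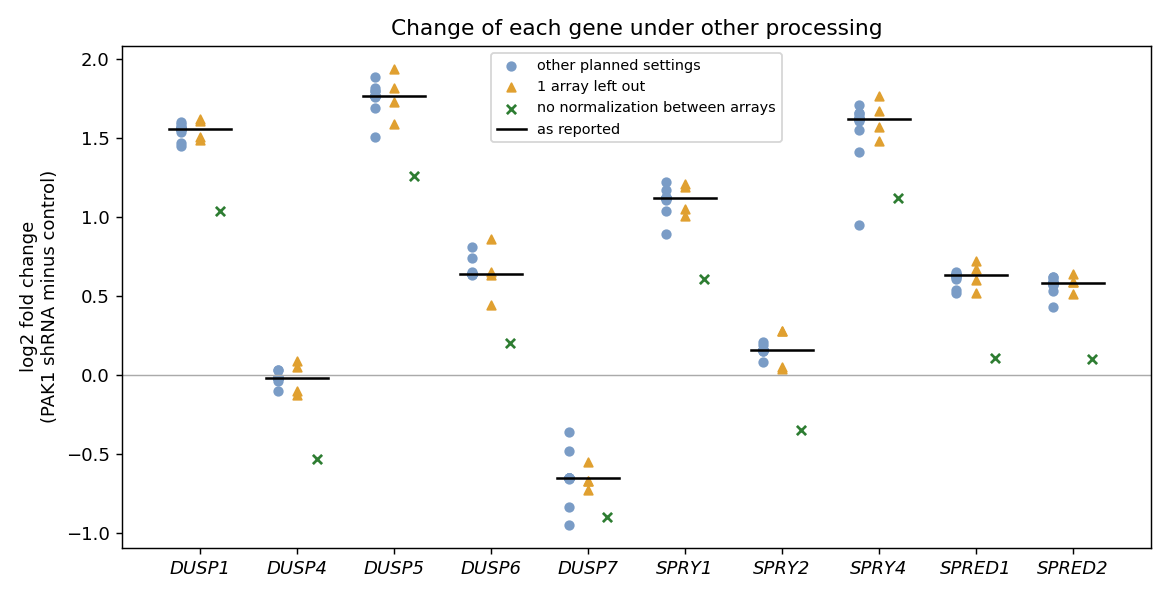
Log2 fold change of each gene in PAK1 shRNA cells relative to control (vertical axis) as reported (bar), under the other planned settings (blue circles), with 1 array left out (orange triangles) and without normalization between arrays (green crosses). DUSP1, DUSP5, SPRY1 and SPRY4 stay above 0.6 in every setting, DUSP7 stays below 0, and DUSP4 and SPRY2 lie on both sides of 0.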

How the data were processed

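Total RNA of 4 samples was amplified and labelled, and the labelled cRNA was hybridized in 1 colour (Cy3) to Agilent whole genome arrays. All lay on 1 slide, and a slide block could therefore not be run. Spot intensities were deposited as written by Agilent Feature Extraction (9.5 in the submitters' processing notes, 9.5.3.1 in the file headers), not normalized between arrays. The values of a deposited table, in log2 units, differed from those computed here by a median of 0.0372 over 24302 probes (column medians 9.42, 9.42, 9.4 and 9.4) and were used as an alternative. The offset and filter behind them are not given in the sources used here. Probe positions (hg19) come from the scanner files.

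Intensities were background corrected with normexp (offset 50), fitted without spots of flagged local background, and quantile normalized over spots other than controls. A fit on all spots gave a background mean of -666 and -740 on the control arrays and of -10.7 and -10.2 on the PAK1 shRNA arrays, against -9.19, -12.1, -10.4 and -9.78 as used. Outlier-flagged spots were dropped and repeat spots of a probe averaged. A probe was kept where both arrays of a group (either 1) read it well above background. The brightest kept probe on average represented its gene. Genes were tested with limma 3.58.1 (lmFit, eBayes) under R 4.3.3, two-sided, with Benjamini-Hochberg adjustment over 22022 genes and a threshold of 0.05. Standard errors and 95% confidence intervals are those of limma.

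The 10 genes, the other lists and the processing were chosen with earlier results of these data known. Genes were named by rule: the 10 with every probe, PAK1, the 2 largest rises and the 2 largest falls of each other list among called genes well above background on all 4 arrays, and the 3 genes nearest to the one of the 10 with the largest change. Others are named as chosen after their values were seen.

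The test was checked on simulated data for this comparison, with 22000 genes of which 200 were changed, under 3 assumptions on the spread. With the spread drawn from limma's fitted prior, 27% of changes of 0.5 and 93% of changes of 1 on the log2 scale were recovered, and 8 of 128 calls (6.25%) were unchanged genes. With each gene's own variance the shares were 1% and 45%, with 1 of 47 calls (2.13%) unchanged, and with the shrunken variance they were 84% and 100%, with 36 of 220 calls (16.4%) unchanged, so the error rate depends on how the spread is drawn. The real comparison called 62.9% of genes, a far larger share than was changed in the simulation. The simulated recovery and error rates therefore do not carry over to it. Other settings changed how background was corrected, which signal was read, the scaling between arrays, the filters, the probe that stood for a gene, the test and its threshold, added the replicate number as a block, or left out an array. Some genes of the lists are counted but not reported by name here.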

Additional observations from a re-analysis of the deposited data

How the results depend on the processing

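The 10 genes gave 210 values under the other settings, of which 194 kept both direction and call, 10 lost the call, 1 gained it and 5 turned direction. The 22 other genes followed through these settings, PAK1 included, gave 461 values, of which 454 kept both, 6 lost the call and 1 turned direction. DUSP9, ETV5, JUN, IER3, IER2, JUNB, FOSL1 and the cell type markers, though named above, were not among them. In both counts, settings that changed only the test, its threshold or the block could not turn the direction. DUSP4 turned to 0.03 with the processed signal, to 0.03 with cyclic loess, to 0.09 without the second control array and to 0.05 without the second PAK1 shRNA array. On values without normalization between arrays, a setting chosen after seeing the data, SPRY2 turned to -0.35 and NF1 to -0.14. There 4 of the 10 genes were higher and 2 lower, 2382 of all genes were higher and 8917 lower, and the ERK cascade had 2 higher and 12 lower genes, the other regulators 2 and 6, and the ERK outputs 2 and 8. The median of all genes moved to 0.12 with the processed signal, to 0.14 with median centring and to -0.29 without normalization. With the unpaired t-test of the methods' general statistics (limma is named there for the arrays), 6 of the 10 genes were higher and 1 lower at the unadjusted threshold, and 5916 and 6206 of 22000 genes. After Benjamini-Hochberg adjustment 5 of the 10 were higher and 0 lower (DUSP6, DUSP7 and SPRED1 were lost), 4418 of all genes were higher and 4749 lower, 3 other regulators were lower and 5 ERK outputs higher. With at least 2-fold required as well, 4 and 0 of the 10 genes, 1952 and 1967 of all genes, 2 and 1 of the ERK cascade, 2 and 3 of the other regulators and 2 and 5 of the ERK outputs were higher and lower. SPRY4 was among the 4 by its brighter probe. When single arrays were left out, 7 of the 10 genes were higher and 1 lower each time, DUSP4 ranged from -0.13 to 0.09, all genes ranged from 5823 to 6495 higher and from 6009 to 6659 lower, the ERK cascade from 6 to 7 and from 4 to 5, the other regulators from 7 to 8 and at 6, and the ERK outputs from 8 to 11 and from 7 to 8. The lone array of a group was then assumed to vary like the other group. Same-numbered arrays did not deviate together (r = 0.0092 across 27517 probes). With 2 arrays in each group this cannot exclude that they were handled as pairs. With the replicate number as a block, 7 of the 10 genes were higher and 1 lower, and 7019 of all genes were higher and 7084 lower. For the dim DUSP7 probe the value was -0.36 with the normexp fit on all spots and -0.95 with the processed signal.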
